A study of Mus musculus with 8 samples.

Results

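Solute carriers are the Slc genes, a large set of membrane proteins that move amino acids, sugars, lactate, nucleosides, ions, vitamins and metabolites across the plasma membrane and the membranes of organelles. The set was taken from a table of raw counts for 39056 genes. Of 371 protein-coding rows whose symbol starts with Slc and a digit, 197 were selected on their raw counts, at least 10 in at least 4 of the 8 libraries, and are described here. The rule took libraries of both groups together, so a gene near 0 in 1 group could enter only through the other.

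RNA was measured in CD4+ T cells sorted by flow cytometry, with spleen and lymph nodes combined, from mice of the C57BL/6J strain. The recipients had been given bone marrow progenitors that a retrovirus had transduced with a TCR alpha chain, and the groups differed in that chain, called ANT or SAS. All 8 samples carried the genotype CD4-Cre TCRβtg Tcra-/-, that is, a T cell receptor beta transgene, no endogenous alpha gene, and a Cre driven by the CD4 promoter. Each group is therefore called a clone, with replicates 1, 3, 4 and 5 for ANT and 1, 2, 3 and 6 for SAS. Ages were not given in the labels, nor was it said whether each sample came from its own mouse, so p-values measure only the spread between these samples. The study compared gene expression between the 2 clones. In bulk RNA, fewer cells of a type and less RNA per cell cannot be told apart.

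Library totals ran from 27600959 to 31810799 counts. The markers of the labelled cell type were present: Cd4 stood between 857 and 1008 counts per 1000000 (CPM) in all 8 libraries and Cd3e between 448 and 544 CPM. The 9 markers of CD8 T and NK cells summed to 56.0 to 103 CPM in ANT and to 5.59 to 10.7 CPM in SAS. Most of that was Prf1 (means of 35.8 and 3.69 CPM) and Cd8b1 (33.6 and 2.42 CPM), which were called higher in ANT, as was Gzma. Cd8a was not called (2.56 and 0.916 CPM), Klrb1c was called higher in SAS at low levels (0.0345 and 0.792 CPM), Gzmb was not tested (0.0435 and 0.274 CPM), and Ncr1, Klre1 and Klra8 were at 0 counts in all libraries. SAS replicate 2 stood apart in some neuronal transcripts, such as Snap25 at 29.6 CPM, while the rest of SAS had 1.16 to 1.90 CPM. The part of either in the solute carrier values was not tested, and the results that rest on SAS replicate 2 are given with and without it.

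As background, resting T cells take up little, and antigen receptor signals raise the transporters that feed growth. Slc7a5 with Slc3a2 carries large neutral amino acids such as leucine, Slc1a5 carries glutamine, Slc2a1 carries glucose, and some members of the Slc16 family carry lactate with a proton. The Slc25 family exchanges metabolites across the inner mitochondrial membrane, and the Slc29 family lets nucleosides pass down their gradient. Members were placed in substrate groups by gene family, with exceptions for single genes. A group can therefore hold members whose own substrate is not settled or differs from its name.

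The solute carriers differed between the clones in both directions. Of the 197 genes, 194 passed the low-count filter of the test, and edgeR's quasi-likelihood test at an adjusted p under 0.05 called 52 for SAS as the higher clone and 24 for ANT, leaving 118 uncalled. These 76 calls are 39.2% of the tested solute carriers, beside 37.4% of all 12619 genes tested (19.8% called for SAS and 17.7% for ANT). The share is near the background. Among the 172 with at least 10 counts in every library, 38 (22.1%) were called for SAS and 23 (13.4%) for ANT, beside 16.9% and 18.7% of all genes with that depth. The whole share called was 35.5%, beside 35.6% of such genes. The clones did not overlap in 81 of the 194 solute carriers, 52 with SAS above and 29 with ANT above, beside 38.1% of all genes tested (20.5% and 17.7%). With 10 counts in every library these were 69, 41 and 28 of 172, beside 36.6%, 17.9% and 18.8% of such genes. Called changes of at least 2-fold numbered 41 of 194, beside 15.9% of all genes, and 26 of 172 at that depth, beside 11.4%. The 81 and the 41 include 7 genes, named below, that entered only through SAS and had to differ. The median log2 fold change, always SAS minus ANT here, was 0.10 over the 194 and -0.00 over all genes tested.

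**Figure D1:**
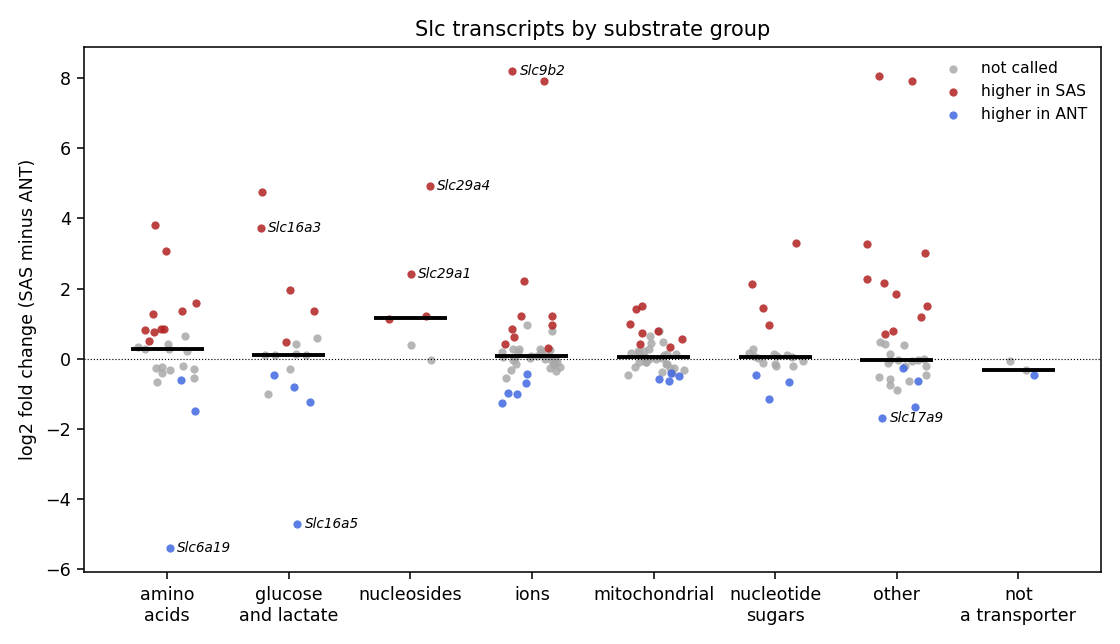
Each point is 1 tested solute carrier gene; the vertical axis is the log2 fold change (SAS minus ANT), and columns are substrate groups with a bar at the median. Red points were called higher in SAS, blue points higher in ANT and grey points not called; all 4 called nucleoside genes lie above 0.

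The remaining 25 genes fell short of 10 counts in at least 1 library. Among them SAS was called higher for 14 and ANT for 1, while 7 were not called and 3 (Slc12a3, Slc24a2 and Slc28a1) were not tested. In 7 of them, Slc22a2, Slc29a4, Slc44a5, Slc45a3, Slc6a8, Slc9b1 and Slc9b2, all 4 SAS libraries reached 10 counts and no ANT library did, and no gene showed the reverse. Those 7 entered only through SAS and had to differ, so their values are given below without a test. Slc12a3 (6, 8, 7 and 10 counts in ANT and 15, 6, 10 and 11 in SAS) lies just inside the count rule. Slc22a3, an organic cation transporter, lies just outside it, with 0 counts in each ANT library and 25, 17, 16 and 5 in SAS.

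Amino acid transporters differed in both directions. SAS was higher for 10 of 27 tested members and ANT for 3, and 14 were not called, with a median log2 fold change of 0.29. These calls are 48.1% of the group, beside 37.4% of all genes tested. With at least 10 counts in every library they were 7 and 2 of 23 (39.1%), beside 35.6% of such genes. Without SAS replicate 2 they were 8 and 4 members, and Slc1a2, described below, is among those that lose the call. Their CPM summed to 1639.5 ± 98.5 in ANT and 1979 ± 147 in SAS (SD, n = 4 each). In the Slc7 family SAS was higher for 5 of 8 and ANT for 0 (62.5% called, beside 37.4% of all genes tested). With at least 10 counts in every library SAS was higher for 3 of 6 Slc7 members and ANT for 0, while 35.6% of such genes were called.

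Slc7a5, the light chain of the leucine transporter, stood at 20.7, 26.1, 43.5 and 32.7 CPM in ANT and at 59.1, 79.9, 93.6 and 84.3 CPM in SAS. Libraries are always listed by replicate number, 1, 3, 4 and 5 for ANT and 1, 2, 3 and 6 for SAS. Levels with ± are means and SD of the 4 libraries of a clone, and fold changes with ± carry their standard error. Every SAS library lay above every ANT library, and the log2 fold change was 1.37 ± 0.22 (SE, edgeR adjusted p = 0.000845). Its partner Slc3a2, the heavy chain CD98, stood at 78.4, 85.1, 109 and 99.0 CPM in ANT and at 93.6, 139, 135 and 106 CPM in SAS. The clones overlapped for Slc3a2, and its log2 fold change of 0.35 ± 0.15 was not called (edgeR adjusted p = 0.101). That gene is called without SAS replicate 1 (log2 fold change 0.45, edgeR adjusted p = 0.0442). The light chain therefore passed the test and the heavy chain did not; the difference between their fold changes was not tested.

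Slc7a1, a carrier of arginine and lysine, stood at 73.3, 79.4, 101 and 102 CPM in ANT and at 183, 239, 223 and 213 CPM in SAS. The clones did not overlap, and the log2 fold change was 1.27 ± 0.14 (edgeR adjusted p = 5.08e-05). Slc7a6, which exchanges cationic for neutral amino acids, rose from 55.1, 54.5, 59.8 and 72.0 CPM in ANT to 109, 94.6, 92.8 and 116 CPM in SAS (log2 fold change 0.77 ± 0.12, edgeR adjusted p = 0.000725). Its close relative Slc7a7 was low in both clones, at 0.110 to 0.379 CPM in ANT against 1.93 to 3.02 CPM in SAS (log2 fold change 3.08 ± 0.37, edgeR adjusted p = 0.000101). Exons of Slc7a7 overlap those of Oxa1l on the opposite strand, and Oxa1l stood at 69.3 CPM in ANT against 78.3 CPM in SAS. Because the strand setting of the counting was not given in the sources used here, reads of the 2 genes may not be separated. Slc7a8, another light chain for neutral amino acids, was also low, at 0.350 ± 0.173 CPM in ANT against 1.07 ± 0.329 CPM in SAS (log2 fold change 1.59 ± 0.42, edgeR adjusted p = 0.0127).

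Glutamine and alanine carriers split. Slc1a5 stood at 129, 126, 176 and 187 CPM in ANT and at 272, 251, 257 and 330.1 CPM in SAS (log2 fold change 0.85 ± 0.15, edgeR adjusted p = 0.0017), with no overlap. Slc38a1, a sodium-coupled carrier of small neutral amino acids, stood at 151, 138, 156 and 170.3 CPM in ANT and at 258, 301, 278 and 264 CPM in SAS (log2 fold change 0.84 ± 0.10, edgeR adjusted p = 0.000101). Slc38a2 of the same family went the other way, from 575, 523, 378 and 432 CPM in ANT to 318, 313, 327 and 300.1 CPM in SAS (log2 fold change -0.60 ± 0.13, edgeR adjusted p = 0.0055). All ANT libraries lay above all SAS libraries for Slc38a2. Slc36a4, which carries proline and tryptophan, was higher in SAS, at 11.4 ± 2.08 CPM in ANT against 20.0 ± 4.24 CPM in SAS (log2 fold change 0.81 ± 0.18, edgeR adjusted p = 0.00517).

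The members higher in ANT besides Slc38a2 were Slc16a10 and Slc6a19. Slc16a10, a carrier of aromatic amino acids, stood at 29.4, 24.9, 44.8 and 49.5 CPM in ANT and at 10.4, 16.0, 16.3 and 9.86 CPM in SAS (log2 fold change -1.50 ± 0.25, edgeR adjusted p = 0.00106). Slc6a19, a sodium-coupled neutral amino acid carrier best known from gut and kidney, stood at 11.6, 29.5, 7.28 and 3.86 CPM in ANT and at 0.244, 0.421, 0.138 and 0.418 CPM in SAS. Its ANT libraries spread widely but all exceeded the SAS libraries, with a log2 fold change of -5.40 ± 0.68 (edgeR adjusted p = 0.000159). Slc6a6, the taurine transporter, did not pass the test (115 ± 20.0 CPM in ANT, 138 ± 23.4 CPM in SAS, edgeR adjusted p = 0.202), but leaving out ANT replicates 4 and 5 gives it a call (edgeR adjusted p = 0.0276, log2 fold change 0.46). The same held for Slc15a4, a lysosomal carrier of histidine and peptides (17.3 ± 2.90 and 21.1 ± 2.58 CPM, edgeR adjusted p = 0.155, and 0.0206 without those libraries).

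**Figure D2:**
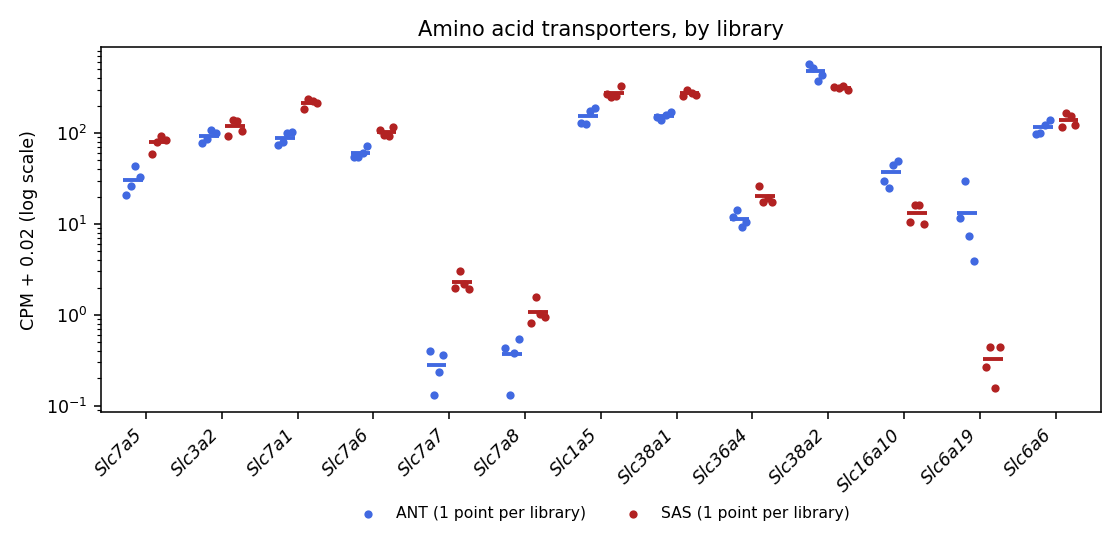
Points are the 8 libraries (blue ANT, red SAS) for 13 amino acid transporters, bars are group means, and the vertical axis is CPM plus 0.02 on a log scale. Slc7a5 and Slc7a1 separate upward in SAS, Slc3a2 overlaps, and Slc38a2, Slc16a10 and Slc6a19 are lower in SAS.

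The glucose and lactate group, which holds Slc16 members placed by family, moved in both directions. SAS was higher for 5 of 17 tested members and ANT for 4, with 8 uncalled (52.9% called, beside 37.4% of all genes tested). With at least 10 counts in every library SAS was higher for 4 of 14 and ANT for 4 (57.1%), beside 35.6% of such genes. The median log2 fold change over the 17 was 0.11. The glucose transporter Slc2a1 was higher in ANT, at 43.3, 39.5, 35.2 and 37.3 CPM against 21.7, 24.3, 23.5 and 18.9 CPM in SAS (log2 fold change -0.81 ± 0.12, edgeR adjusted p = 0.000345). The second glucose transporter, Slc2a3, stood at 32.8, 30.5, 30.0 and 32.0 CPM in ANT and at 18.3, 37.0, 27.9 and 20.3 CPM in SAS. Only SAS replicate 2 exceeded the ANT libraries for Slc2a3, and the gene was not called (log2 fold change -0.28 ± 0.20, edgeR adjusted p = 0.308). Without SAS replicate 2 it is called (log2 fold change -0.50, edgeR adjusted p = 0.0325).

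Slc16a1 and Slc16a3 were higher in SAS. Slc16a1, which carries lactate and pyruvate in either direction, stood at 25.0, 22.6, 19.7 and 21.7 CPM in ANT and at 61.2, 56.7, 61.3 and 51.5 CPM in SAS (log2 fold change 1.37 ± 0.11, edgeR adjusted p = 6.6e-06). Slc16a3, the isoform known for lactate export from glycolytic cells, stood at 1.07, 0.698, 0.505 and 0.379 CPM in ANT and at 9.53, 9.82, 8.59 and 7.48 CPM in SAS (log2 fold change 3.73 ± 0.29, edgeR adjusted p = 6.08e-06). Neither overlapped between clones. Embigin (Emb), an accessory protein of monocarboxylate carriers, went against them, at 369 ± 32.6 CPM in ANT against 112 ± 15.0 CPM in SAS (log2 fold change -1.73, edgeR adjusted p = 3.07e-06). Basigin (Bsg), the main chaperone of Slc16a1 and Slc16a3, was not called (log2 fold change 0.13, edgeR adjusted p = 0.294).

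Slc16a5, placed in the glucose and lactate group only as a member of the monocarboxylate carrier family, was the most strongly lowered in SAS of that group. It stood at 89.5, 96.4, 77.6 and 90.3 CPM in ANT and at 3.29, 4.56, 3.35 and 2.35 CPM in SAS (log2 fold change -4.71 ± 0.19, edgeR adjusted p = 7.27e-08). The clones were far apart and tight within each. Slc16a6 was also higher in ANT, at 38.3 ± 10.4 CPM against 16.4 ± 1.94 CPM in SAS (log2 fold change -1.23 ± 0.19, edgeR adjusted p = 0.000607). It shares 1052 bases of exon with Amz2 on the opposite strand, which was at 35.0 CPM in ANT against 50.1 CPM in SAS. In the Slc16 family as a whole, SAS was higher for 2 of 8 members and ANT for 3, Slc16a10 included (62.5% called, beside 37.4% of all genes tested).

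Slc37a2, a sugar phosphate carrier of the endoplasmic reticulum, was higher in SAS (5.08 ± 1.11 CPM in ANT, 19.7 ± 2.36 CPM in SAS, with a log2 fold change of 1.95 ± 0.18, edgeR adjusted p = 2e-05). Its relative Slc37a3 was higher by less (62.0 ± 5.43 and 86.6 ± 2.75 CPM, log2 fold change 0.48 ± 0.09, edgeR adjusted p = 0.00256). Slc50a1, a sugar carrier, stood at 98.3, 102, 74.5 and 67.3 CPM in ANT and at 67.7, 57.6, 52.5 and 69.8 CPM in SAS, with overlap. It passed narrowly (log2 fold change -0.46 ± 0.16, edgeR adjusted p = 0.0386) and lost its call in 5 of 8 fits that left out 1 library. Slc45a3, a sugar carrier known from prostate, was at 0 to 0.138 CPM in ANT and at 1.37, 2.17, 1.31 and 1.32 CPM in SAS.

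**Figure D3:**
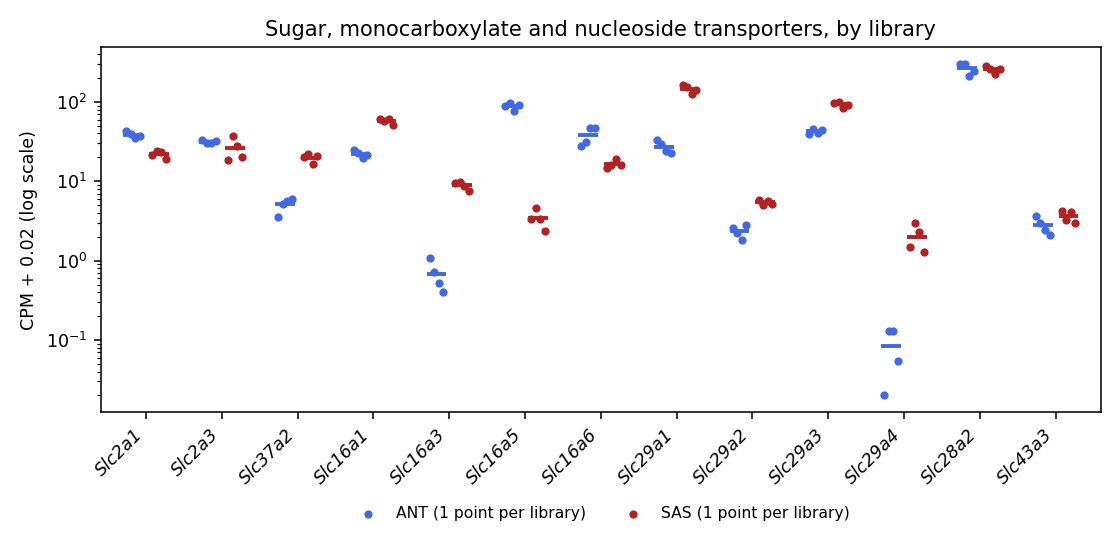
Points are the 8 libraries (blue ANT, red SAS) for members of the glucose and lactate group and of the nucleoside group. Bars are clone means, and the vertical axis is CPM plus 0.02 on a log scale. Slc2a1 and Slc16a5 lie lower in SAS, while Slc16a1, Slc16a3 and the Slc29 genes lie higher.

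Nucleoside carriers were the group with the largest median log2 fold change, 1.17, and SAS was higher for 4 of 6 tested members and ANT for 0 (66.7% called, beside 37.4% of all genes tested). All 4 were the Slc29 family, the equilibrative transporters. Slc29a4 entered only through SAS and had to differ, and the other 3 had at least 10 counts in every library. The median and the share above include Slc29a4. With at least 10 counts in every library SAS was higher for 3 of 5 tested nucleoside carriers and ANT for 0, while 35.6% of such genes were called. Summed over the group, CPM was 340.1 ± 47.8 in ANT and 506 ± 47.6 in SAS.

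Slc29a1, the main plasma membrane nucleoside carrier, stood at 33.0, 29.4, 24.0 and 22.4 CPM in ANT and at 164, 152, 125 and 140.2 CPM in SAS. The lowest SAS library lay above every ANT library, and the log2 fold change was 2.42 ± 0.15 (edgeR adjusted p = 1.45e-06). Slc29a3, the lysosomal member, stood at 39.7, 45.4, 41.1 and 44.7 CPM in ANT and at 96.9, 99.3, 83.1 and 92.2 CPM in SAS (log2 fold change 1.12 ± 0.10, edgeR adjusted p = 1.26e-05). Slc29a2, which also carries nucleobases, was less abundant, at 2.33 ± 0.419 CPM in ANT against 5.41 ± 0.350 CPM in SAS (log2 fold change 1.21 ± 0.19, edgeR adjusted p = 0.000569). Slc29a4, best known as a monoamine transporter, was at 0, 0.110, 0.108 and 0.0345 CPM in ANT and at 1.46, 2.98, 2.28 and 1.25 CPM in SAS.

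The sodium-coupled purine nucleoside carrier Slc28a2 was not called. It stood at 299, 301, 215 and 243 CPM in ANT and at 285, 259.7, 224 and 259 CPM in SAS, so the clones overlapped (log2 fold change -0.04 ± 0.13, edgeR adjusted p = 0.818). Per length it was the most abundant nucleoside carrier in both clones, at 199 ± 24.4 transcripts per 1000000 (TPM) in ANT and 219 ± 18.4 TPM in SAS. Slc29a1 was at 21.4 ± 2.58 TPM in ANT and 130.3 ± 13.5 TPM in SAS on the same per-length scale. Slc43a3, a purine nucleobase carrier, was low and not called (2.75 ± 0.683 and 3.60 ± 0.619 CPM, edgeR adjusted p = 0.218). The genes whose log2 CPM followed Slc29a1 most closely over the 8 libraries were Tnfrsf1b and Il10ra, each with a Pearson r of 0.998. All of these values share the clone difference.

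Promoters of the solute carriers were searched for 7 short sites of immediate early and nuclear factors that can be looked for by letters. RefSeq promoters of 300 bases, 250 before to 50 after a start (build GRCm38.p6), matched 149 of the 197 solute carriers with 195 promoters. The Egr site, GCGTGGGCG on either strand, occurred in 4 of 44 genes higher in SAS (9.09%), in 0 of 20 higher in ANT and in 1 of 82 not called (1.22%). It occurred in 1.54% of the 9207 tested genes with a promoter. Counted per promoter, it was in 5 of 64 for genes higher in SAS (7.81%), 0 of 24 for those higher in ANT and 3 of 103 for those not called (2.91%). These stand beside 1.29% of the promoters of tested genes and 0.612% of all 32851 promoters of that length. The difference between these shares was not tested. Genes with more starts have more chances to hold it. The 4 genes higher in SAS were Slc29a1, Slc25a1, Slc25a39 and Slc7a6, and their promoters are shown, with the site in capitals, to let it be seen in place. In Slc25a39 it reads as the reverse complement, CGCCCACGC.

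The promoter of Slc29a1 is chr17:45595815-45596114 (minus strand), that of Slc25a1 chr16:17928170-17928469 (minus), that of Slc25a39 chr11:102407468-102407767 (minus) and that of Slc7a6 chr8:106168604-106168903 (plus).
Slc29a1: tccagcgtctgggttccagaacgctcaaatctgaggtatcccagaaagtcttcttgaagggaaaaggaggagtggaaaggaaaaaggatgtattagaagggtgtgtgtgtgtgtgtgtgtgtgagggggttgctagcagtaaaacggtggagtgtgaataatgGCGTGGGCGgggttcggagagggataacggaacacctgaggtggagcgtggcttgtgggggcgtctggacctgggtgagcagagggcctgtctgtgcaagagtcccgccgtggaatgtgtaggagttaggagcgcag
Slc25a1: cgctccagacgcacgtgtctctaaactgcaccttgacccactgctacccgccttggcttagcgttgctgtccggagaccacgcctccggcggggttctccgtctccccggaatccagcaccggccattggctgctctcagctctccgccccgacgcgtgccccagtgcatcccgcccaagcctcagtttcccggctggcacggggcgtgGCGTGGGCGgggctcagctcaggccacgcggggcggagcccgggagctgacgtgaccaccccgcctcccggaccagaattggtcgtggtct
Slc25a39: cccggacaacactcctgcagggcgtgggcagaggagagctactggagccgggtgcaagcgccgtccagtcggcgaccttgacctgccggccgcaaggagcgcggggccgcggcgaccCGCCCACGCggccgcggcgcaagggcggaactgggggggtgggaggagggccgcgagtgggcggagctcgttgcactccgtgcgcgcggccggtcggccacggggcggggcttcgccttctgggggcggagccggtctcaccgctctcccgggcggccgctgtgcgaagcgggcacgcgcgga
Slc7a6: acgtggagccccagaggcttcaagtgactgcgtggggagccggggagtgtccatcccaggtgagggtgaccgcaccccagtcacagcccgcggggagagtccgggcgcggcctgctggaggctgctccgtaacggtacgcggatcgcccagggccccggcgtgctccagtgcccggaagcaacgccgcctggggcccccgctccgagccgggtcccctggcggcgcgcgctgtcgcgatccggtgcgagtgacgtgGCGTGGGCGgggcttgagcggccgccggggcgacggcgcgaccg
A match is a run of letters and does not show that a factor binds there.

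The AP-1 site TGANTCA had the same counts among called genes, 4 of 44 higher in SAS (9.09%) and 0 of 20 higher in ANT, and was in 6.1% of those not called, beside 5.66% of tested genes. The E-box CACGTG was in 15.9%, 20.0% and 14.6%, beside 11.9%. The NFAT core GGAAAA was in 15.9%, 5.0% and 20.7%, beside 23.6%, and the half-site TGACG in 29.5%, 40.0% and 30.5%, beside 36.4%. The amino acid response element TGATGNAA was in 2.27%, 5.0% and 3.66%, beside 2.7%, and the Nr4a site AAAGGTCA was in 0 of the solute carrier promoters, beside 1.11% of tested genes. TGANTCA and CACGTG read the same on both strands, and motifs were counted whether or not they overlapped another.

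Of 47 ion carriers tested, SAS was higher for 10 and ANT for 5, and 32 were not called, with a median log2 fold change of 0.09. The share called was 31.9%, beside 37.4% of all genes tested. Slc9b2 and Slc9b1, which entered only through SAS, are among the 10. With at least 10 counts in every library SAS was higher for 7 of 42 and ANT for 5 (28.6%), beside 35.6% of such genes. Summed CPM was 2083 ± 93.6 in ANT and 1868 ± 65.4 in SAS. Slc9b2, a sodium and proton exchanger, was near 0 in ANT. It stood at 0.0690, 0.184, 0.180 and 0.172 CPM in ANT and at 58.1, 41.9, 40.2 and 41.1 CPM in SAS, that is 17 counts in the 4 ANT libraries together and 5549 in SAS.

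Its neighbour Slc9b1, a related exchanger known from sperm, lies 2641 bases downstream on chromosome 3. Slc9b1 had 0 counts in every ANT library and 33, 36, 25 and 31 counts in SAS, or 1.01, 1.26, 0.863 and 0.996 CPM. Set against a floor of 3 counts over the ANT group, it was at least 38.8-fold higher in SAS. The RefSeq promoters of the pair are chr3:135307450-135307749 for Slc9b2 and chr3:135347779-135348078 for Slc9b1, both on the plus strand, and the NFAT core is in capitals, read in Slc9b2 as TTTTCC, the reverse complement of GGAAAA.
Slc9b2: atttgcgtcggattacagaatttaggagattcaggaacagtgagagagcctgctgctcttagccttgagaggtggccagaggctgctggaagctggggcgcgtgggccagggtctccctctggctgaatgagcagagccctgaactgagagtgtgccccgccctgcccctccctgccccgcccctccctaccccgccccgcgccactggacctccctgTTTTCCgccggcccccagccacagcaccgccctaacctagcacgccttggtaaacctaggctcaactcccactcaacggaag
Slc9b1: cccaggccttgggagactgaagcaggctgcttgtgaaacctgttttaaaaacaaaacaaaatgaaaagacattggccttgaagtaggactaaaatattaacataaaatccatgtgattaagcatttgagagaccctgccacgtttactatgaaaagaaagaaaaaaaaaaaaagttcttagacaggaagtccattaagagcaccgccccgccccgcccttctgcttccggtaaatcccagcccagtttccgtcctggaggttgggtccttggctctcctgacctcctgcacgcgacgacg
These letters occur once or more in 23.6% of tested genes, and the Slc9b1 window holds none.

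Slc4a8, a sodium-driven exchanger of chloride and bicarbonate, stood at 2.52, 2.39, 2.99 and 2.76 CPM in ANT and at 14.2, 13.6, 11.6 and 9.80 CPM in SAS (log2 fold change 2.21 ± 0.17, edgeR adjusted p = 5.05e-06). Its relative Slc4a7, a bicarbonate cotransporter, was not called (54.3 ± 11.7 and 59.5 ± 4.72 CPM, edgeR adjusted p = 0.526).

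Phosphate carriers split. Slc20a1 stood at 355, 358, 302 and 376 CPM in ANT and at 136, 164, 145 and 139.8 CPM in SAS (log2 fold change -1.25 ± 0.11, edgeR adjusted p = 1.01e-05), with no overlap. Slc20a2 was higher in SAS by little, at 10.9 ± 0.690 CPM in ANT against 14.5 ± 1.49 CPM in SAS (log2 fold change 0.42 ± 0.12, edgeR adjusted p = 0.022), and lost its call in 4 of 8 fits that left out a library. Per length Slc20a1 was far the more abundant, at 198 ± 24.8 TPM in ANT and 94.4 ± 11.1 TPM in SAS.

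Chloride cotransporters also split. Slc12a7, a potassium and chloride exporter, was higher in ANT (334 ± 32.3 CPM against 207 ± 26.2 CPM in SAS, log2 fold change -0.69 ± 0.12, edgeR adjusted p = 0.00109). Slc12a4, of the same class, was higher in SAS (21.4 ± 4.39 and 42.0 ± 5.62 CPM, log2 fold change 0.97 ± 0.16, edgeR adjusted p = 0.000903). Slc12a2, which imports sodium, potassium and chloride, was higher in SAS (13.2 ± 3.30 and 20.5 ± 0.651 CPM, log2 fold change 0.63 ± 0.16, edgeR adjusted p = 0.0119).

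The metal carriers differed in both directions. The zinc importers of the Slc39 family had SAS higher for 1 of 12 members and ANT for 0 (8.33% called, beside 37.4% of all genes tested). Slc39a1 was at 31.8 ± 1.99 CPM in ANT against 35.9 ± 2.52 CPM in SAS (edgeR adjusted p = 0.184). In the Slc30 zinc exporters 2 of 6 were higher in ANT and 0 in SAS (33.3% called). Slc30a1, the plasma membrane zinc exporter, stood at 30.0, 31.8, 44.2 and 48.1 CPM in ANT and at 17.6, 19.5, 18.6 and 21.8 CPM in SAS (log2 fold change -0.99 ± 0.17, edgeR adjusted p = 0.000956). Slc31a2, of the copper transporter family, was higher in ANT (8.79 ± 0.408 and 4.49 ± 1.04 CPM, log2 fold change -0.97 ± 0.18, edgeR adjusted p = 0.00197). Slc41a1, a magnesium carrier, was higher in SAS (43.8 ± 4.99 and 79.5 ± 6.62 CPM, log2 fold change 0.86 ± 0.11, edgeR adjusted p = 0.000178). Slc11a2, an iron carrier, was higher in SAS by little (33.4 ± 1.18 and 41.1 ± 1.95 CPM, log2 fold change 0.30 ± 0.09, edgeR adjusted p = 0.0223) and lost its call in 5 of 8 fits that left out a library. The transferrin receptor Tfrc, which brings in iron with it, was at 87.2 ± 21.2 CPM in ANT against 195 ± 27.5 CPM in SAS (log2 fold change 1.16, edgeR adjusted p = 0.000495).

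**Figure D4:**
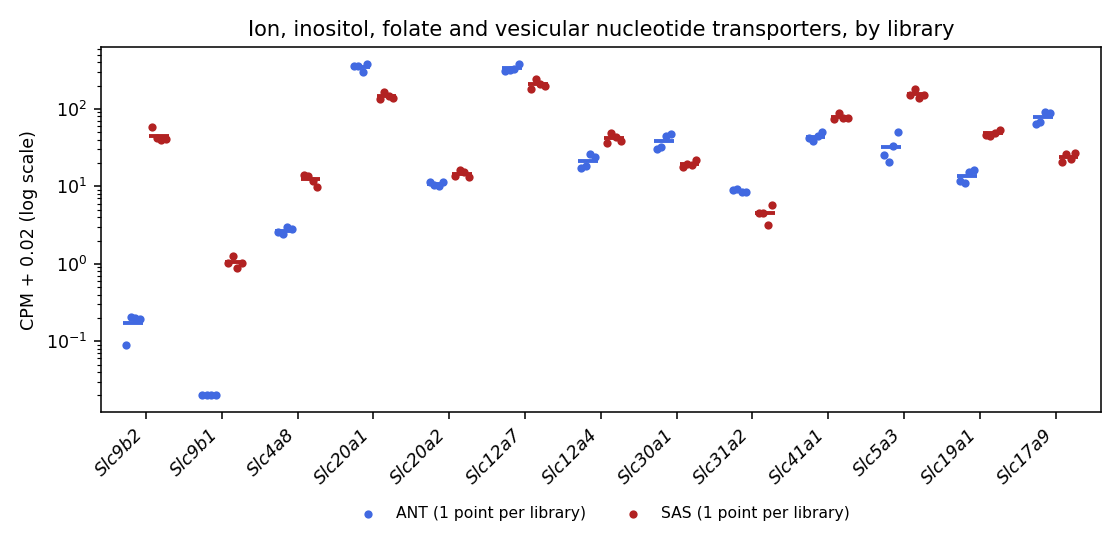
Points are the 8 libraries (blue ANT, red SAS) for ion, inositol, folate and vesicular nucleotide carriers, bars are group means, and the vertical axis is CPM plus 0.02 on a log scale, so that a count of 0 sits at 0.02. Slc9b2 and Slc9b1 are near or at 0 in ANT only.

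Of 41 tested mitochondrial carriers SAS was higher for 8 and ANT for 4, and 29 were not called, with a median log2 fold change of 0.05 (29.3% called, beside 37.4% of all genes tested). The number higher in SAS ran from 3 to 12 over the alternative fits, and from 5 to 8 when 1 library was left out. Slc25a20 and Slc25a51 were among the 8 and lost the call in 5 and 6 of 8 fits that left out a library. CPM of the 41 carriers summed to 1930.1 ± 32.5 in ANT and 2171 ± 63.0 in SAS. Slc25a5, an ADP and ATP exchanger, was per length the most abundant solute carrier of all, at 586 ± 103 TPM in ANT and 986 ± 89.7 TPM in SAS. In CPM it stood at 384, 349, 267 and 228 in ANT and at 532, 391, 446 and 441 in SAS (log2 fold change 0.56 ± 0.17, edgeR adjusted p = 0.0257). The clones did not overlap, by a small gap, and the call was lost in 5 of 8 fits that left out a library. This gene has near-identical copies elsewhere, so its counts are uncertain. Slc25a4, another ADP and ATP exchanger (67.6 ± 16.9 and 72.9 ± 13.9 CPM, edgeR adjusted p = 0.692), and the phosphate carrier Slc25a3 (403 ± 63.8 and 454 ± 64.5 CPM, edgeR adjusted p = 0.387) were not called.

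Citrate, aspartate, nucleotide and glutathione carriers were among the called genes. Slc25a1, the citrate exporter, stood at 11.6, 12.1, 14.3 and 11.1 CPM in ANT and at 21.6, 27.4, 26.0 and 23.6 CPM in SAS (edgeR adjusted p = 0.000169). Slc25a13, an aspartate and glutamate exchanger, stood at 4.28 ± 1.22 CPM in ANT against 11.5 ± 1.82 CPM in SAS (log2 fold change 1.42 ± 0.21, edgeR adjusted p = 0.000493). Slc25a33, a pyrimidine nucleotide carrier, stood at 1.46 ± 0.223 CPM in ANT against 4.13 ± 0.526 CPM in SAS (edgeR adjusted p = 0.000262). Slc25a39, which imports glutathione, stood at 21.5 ± 1.99 CPM in ANT against 35.9 ± 1.84 CPM in SAS (log2 fold change 0.74 ± 0.10, edgeR adjusted p = 0.00031). Slc25a28, the iron importer mitoferrin, was higher in ANT (25.8 ± 2.12 and 16.8 ± 0.782 CPM, log2 fold change -0.62 ± 0.11, edgeR adjusted p = 0.00106), and so was Slc25a30 (38.0 ± 3.50 and 25.5 ± 2.15 CPM, log2 fold change -0.58 ± 0.11, edgeR adjusted p = 0.00202).

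The nucleotide sugar group is the whole Slc35 family, known for carriers in the Golgi and endoplasmic reticulum. Its members were placed by family, and not each has a settled substrate. SAS was higher for 4 of 20 members and ANT for 3, with 13 uncalled. The median log2 fold change was 0.06, and 35.0% were called, beside 37.4% of all genes tested. Slc35d1, which brings UDP sugars into the endoplasmic reticulum, was higher in SAS (22.0 ± 4.03 and 43.0 ± 4.82 CPM, log2 fold change 0.96 ± 0.15, edgeR adjusted p = 0.000523). Slc35d2, of the same subfamily, was higher in ANT (21.1 ± 5.98 and 9.51 ± 0.664 CPM, log2 fold change -1.15 ± 0.19, edgeR adjusted p = 0.00104). Slc35g1 was at 7.63 ± 1.29 CPM in ANT against 33.1 ± 3.96 CPM in SAS (log2 fold change 2.12 ± 0.15, edgeR adjusted p = 3.35e-06), and Slc35f2 at 5.97 ± 1.25 and 16.2 ± 0.821 CPM (log2 fold change 1.44 ± 0.16, edgeR adjusted p = 6.07e-05). The abundant members Slc35a4, Slc35c1 (the GDP-fucose carrier) and Slc35e1 were not called.

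Among the remaining 33 members SAS was higher for 11 and ANT for 4, and 18 were not called (45.5% called, beside 37.4% of all genes tested). Slc22a2, Slc44a5 and Slc6a8, which entered only through SAS, and Slc17a7, described below, are among the 11. With at least 10 counts in every library SAS was higher for 6 of 27 and ANT for 4 (37.0%), beside 35.6% of such genes. Slc5a3, the myo-inositol carrier, stood at 25.7, 20.9, 33.0 and 49.8 CPM in ANT and at 151, 179, 138 and 150.4 CPM in SAS (log2 fold change 2.26 ± 0.24, edgeR adjusted p = 4.8e-05). It shares 159 bases of exon with Mrps6 on the same strand, which itself was at 11.4 CPM in ANT against 37.2 CPM in SAS. Slc19a1, the folate carrier, stood at 11.6, 11.2, 15.1 and 16.1 CPM in ANT and at 46.4, 44.1, 48.5 and 53.7 CPM in SAS (log2 fold change 1.84 ± 0.14, edgeR adjusted p = 5.79e-06). Slc5a6, which carries biotin and pantothenate, was higher in SAS (12.6 ± 1.47 and 20.5 ± 3.74 CPM, log2 fold change 0.71 ± 0.16, edgeR adjusted p = 0.00503). It shares 242 bases of exon with Atraid on the opposite strand, which was at 30.5 CPM in ANT against 15.6 CPM in SAS.

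Slc17a9, which loads ATP into vesicles, was higher in ANT, at 64.7, 67.0, 90.1 and 88.4 CPM against 20.9, 26.3, 22.7 and 26.8 CPM in SAS (log2 fold change -1.68 ± 0.15, edgeR adjusted p = 1.15e-05). The lysosomal carrier Slc46a3 (7.82 ± 2.10 and 3.04 ± 0.694 CPM, log2 fold change -1.36 ± 0.24, edgeR adjusted p = 0.00132) and the carnitine carrier Slc22a5 (25.4 ± 1.20 and 16.4 ± 2.86 CPM, log2 fold change -0.63 ± 0.14, edgeR adjusted p = 0.00519) were higher in ANT too. Slc22a15 was higher in SAS (0.990 ± 0.286 and 8.09 ± 2.23 CPM, log2 fold change 3.02 ± 0.27, edgeR adjusted p = 1.55e-05). Slc22a2, an organic cation carrier, and Slc44a5, of the choline transporter family, had 0 counts in every ANT library and 127 and 137 counts in SAS, at least 38.6-fold and 42.1-fold higher in SAS against the same floor. Slc6a8, the creatine carrier, was at 0.138, 0.294, 0.180 and 0.310 CPM in ANT and at 0.640, 1.05, 0.621 and 0.353 CPM in SAS, which do not overlap.

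Genes that act with these carriers came from lists written for this report with earlier results of these data known. Of 33 tested carriers without the Slc prefix, SAS was higher for 8 and ANT for 5 (39.4% called, beside 37.4% of all genes tested). The mitochondrial uncoupling protein Ucp2 rose in SAS (321 ± 75.1 and 599 ± 83.7 CPM, log2 fold change 0.90, edgeR adjusted p = 0.00226), as did Mfsd2a, a lysolipid carrier (0.290 ± 0.126 and 6.39 ± 1.60 CPM, log2 fold change 4.44, edgeR adjusted p = 5.24e-06). Of 17 partners and regulators, 2 were higher in SAS and 5 in ANT (41.2% called). Among them Txnip, an arrestin that draws glucose carriers from the cell surface, was at 2131 ± 431 CPM in ANT against 360.3 ± 63.1 CPM in SAS (log2 fold change -2.56, edgeR adjusted p = 4.38e-06). Of 22 amino acid response genes 45.5% were called. SAS was higher for 7, among them the serine synthesis enzyme Psat1 (22.3 ± 2.59 and 71.0 ± 9.38 CPM, log2 fold change 1.67, edgeR adjusted p = 5.87e-06), and ANT for 3, among them Trib3 (5.97 ± 0.216 and 1.02 ± 0.431 CPM, log2 fold change -2.56, edgeR adjusted p = 0.000101). Atf4, the factor that drives this response, was itself higher in ANT (log2 fold change -0.34, edgeR adjusted p = 0.0215). Of 34 genes of amino acid sensing by mTORC1, 6 were higher in SAS and 3 in ANT (26.5% called), and of 9 zinc and iron genes 2 were higher in SAS and 1 in ANT (33.3% called).

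Within each clone the solute carriers differed by a median highest over lowest library of 1.4-fold in ANT and 1.28-fold in SAS. SAS replicate 2 was high in members known from neurons. Slc17a7, the vesicular glutamate carrier, stood at 0.690, 0.110, 0.216 and 0.724 CPM in ANT and at 0.609, 14.8, 0.690 and 0.835 CPM in SAS. Its call (log2 fold change 3.26, edgeR adjusted p = 0.0452) was lost without SAS replicate 2 (log2 fold change 0.69, edgeR adjusted p = 0.36). Slc1a2, the glial glutamate carrier, stood at 2.14, 0.147, 0.469 and 1.48 CPM in ANT and at 2.65, 53.0, 2.45 and 1.99 CPM in SAS, and its call (log2 fold change 3.81, edgeR adjusted p = 0.0308) was likewise lost without that library (log2 fold change 1.15, edgeR adjusted p = 0.189). Slc24a2, a sodium, calcium and potassium exchanger that was not tested, was at 8.06 CPM in that library and at 0.548 CPM or less in the others. Syt1 and Camk2a, neuronal markers, were at 22.2 and 46.5 CPM in that library, and at 0.863 to 1.10 and 2.83 to 4.14 CPM in the rest of SAS. Not every neural marker was confined to SAS replicate 2. Nrgn stood at 27.3, 55.0, 27.1 and 27.8 CPM in SAS against 0.0735 to 0.379 CPM in ANT. Mbp stood at 242, 244, 261 and 234 CPM in SAS, with a log2 fold change of 0.00. Of the 174 solute carrier rows below the count rule, 34 had at least 10 counts in SAS replicate 2, against 0 to 10 in any other library. Without SAS replicate 2, 46 solute carriers were higher in SAS and 25 in ANT, beside 2322 and 1969 of all genes.

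ANT replicates 1 and 3 and replicates 4 and 5 stood apart in some members. The urea carrier Slc14a1 stood at 57.5, 61.2, 27.5 and 23.2 CPM in ANT and at 22.3 to 28.6 CPM in SAS, and the urate carrier Slc2a9 at 40.6, 39.4, 20.4 and 19.5 CPM in ANT and at 19.9 to 23.9 CPM in SAS. The fatty acid carrier Slc27a4 ran the other way, at 15.3, 18.1, 41.7 and 42.4 CPM in ANT and at 16.4 to 21.7 CPM in SAS. Of 176 members at a mean of 1 CPM or more, 15 were over 1.5-fold higher in replicates 1 and 3 and 17 in replicates 4 and 5. None of these 3 genes was called in the edgeR test used throughout, and each was called in other fits. Slc14a1 was called without ANT replicate 4 (log2 fold change -0.91, edgeR adjusted p = 0.0318) or 5 (-0.96, 0.0117), and by DESeq2 (adjusted p = 0.0374). Slc2a9 was called without ANT replicate 5 (log2 fold change -0.65, edgeR adjusted p = 0.042), and Slc27a4 without ANT replicate 1 (log2 fold change -0.80, edgeR adjusted p = 0.0373). No label gives a batch for these libraries. Slc15a2, a peptide carrier, varied in both clones, at 3.59, 135, 59.9 and 99.9 CPM in ANT and at 37.1, 0.876, 199 and 6.71 CPM in SAS (log2 fold change -0.29, edgeR adjusted p = 0.878).

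**Figure D5:**
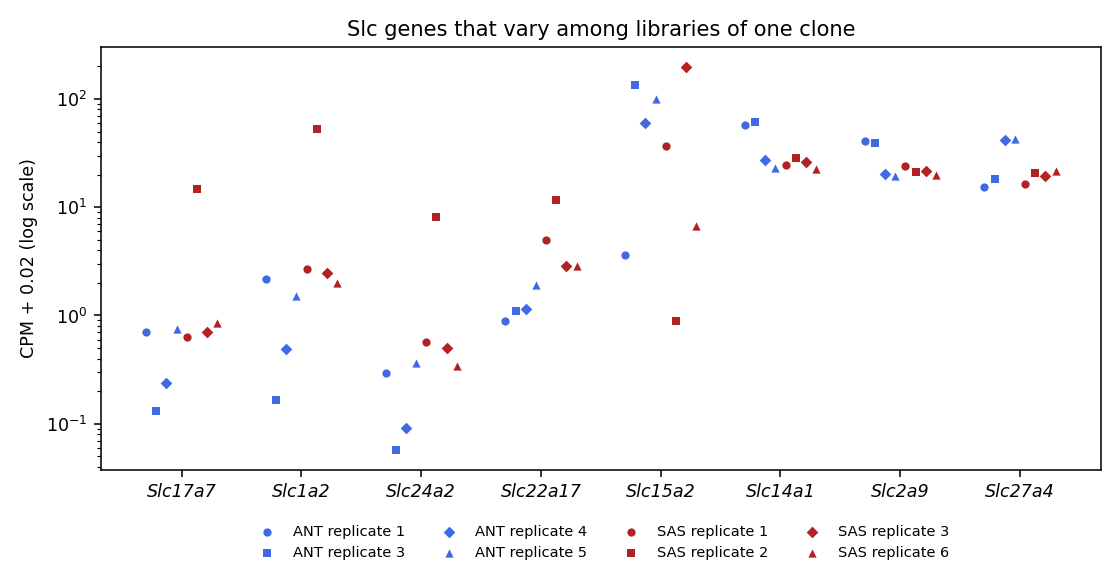
Points are the 8 libraries, by name, for members that vary within a clone; the vertical axis is CPM plus 0.02 on a log scale. Slc17a7, Slc1a2 and Slc24a2 peak in SAS replicate 2, Slc14a1 splits the ANT libraries, and Slc15a2 spreads in both clones.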

How the data were processed

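RNA was measured in 8 libraries, 4 per clone, grouped by title and treatment label. The authors deposited raw read counts per gene, made with STAR, featureCounts and mm10 per the submitters' processing notes. Not given in the sources used here are tool versions, annotation release, strandedness in counting and the treatment of multi-mapped reads. Symbols came from GENCODE M21, which held 38872 of the 39056 IDs once version suffixes were dropped, and 184 had no match.

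The test was that of edgeR 4.0.16 (R 4.3.3) on the raw counts: default low-count filter (12619 genes kept), TMM scaling, robust quasi-likelihood test without covariates, Benjamini-Hochberg adjustment over all genes, calls at 0.05. The SE is the absolute log2 fold change over the square root of F. CPM uses TMM-scaled library sizes, and TPM uses exon-union lengths. Likeness is Pearson's r of log2(CPM + 1) over the 8 libraries, among genes at a mean of at least 5 CPM. Fold floors cover counting error only. On simulated data with 12619 genes, 72% of 2-fold changes in SAS against ANT and 16% of 1.5-fold changes were recovered, and 6.8% of calls were false. The simulation changed a far smaller share of genes than the 37.4% called in these data. Its rates hold for that setting only and do not measure recovery here.

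The solute carriers, their substrate groups and all lists were chosen with earlier results of these data known. Slc4a1ap was moved to the non-transporters and Slc16a10 to the amino acid group after rows were seen, and the neural and CD4 T cell lists were added after seeing the data. Of the named solute carriers, 44 follow a rule: the 8 largest non-overlapping changes in each direction at 10 CPM or more, the 3 most abundant per substrate group, and a set of textbook genes, of which 2 are not reported here. Another 41 were chosen after their values were seen. Same-numbered replicates exist for numbers 1 and 3 only; the correlation of their deviations was 0.293 and -0.121, so the numbers were not taken to pair the samples. Alternatives covered scaling, filter, test (DESeq2, limma-voom), a fold threshold of 1.5, a replicate block and each library left out.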

Additional observations from a re-analysis of the deposited data

Results flagged for a closer look

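Of 170 groups of 4 libraries checked among the named solute carriers, 8 held a library whose gap to the nearest other exceeded Dixon's critical value for that group size, and chance flags about 5% of groups. In 5 of the 8 the library was SAS replicate 2, but those 5 genes were among those chosen after their values were seen, so their number is a description. Among genes named by the rule, 2 of 88 groups held such a library, 0 of them SAS replicate 2. Slc1a2 was at 53.0 CPM in SAS replicate 2, while the rest of SAS had 1.99 to 2.65 CPM. In the same library Slc17a7 was at 14.8 CPM (others 0.609 to 0.835 CPM), Slc24a2 at 8.06 CPM (others 0.321 to 0.548 CPM), Slc27a1, a fatty acid carrier, at 19.7 CPM (others 14.3 to 15.0 CPM) and Slc45a3 at 2.17 CPM (others 1.31 to 1.37 CPM). Slc9b2 was at 58.1 CPM in SAS replicate 1, where the rest of SAS had 40.2 to 41.9 CPM, and at 0.0690 CPM in ANT replicate 1, against 0.172 to 0.184 CPM. Slc25a39 was at 24.5 CPM in ANT replicate 4, against 20.2 to 20.9 CPM in the other ANT libraries.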

How the results depend on the processing

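Of the solute carriers, 52 were higher in SAS and 24 in ANT. With a fold threshold of 1.5 these became 31 and 9 (23 and 8 among those with 10 counts in every library, and 1205 and 631 over all genes), since small changes no longer pass. Leaving out each library in turn gave 44 to 49 higher in SAS and 19 to 26 in ANT, 33 to 37 and 18 to 25 among those with 10 counts in every library, and 2214 to 2464 and 1734 to 2236 over all genes. Scaling by library size alone shifted the median of all genes by 0.10, gave 65 and 20 solute carriers, and moved the share of calls higher in SAS from 52.8% to 64.8%. A replicate block gave 60 and 33 solute carriers (3137 and 2661 over all genes). Only numbers 1 and 3 occur in both clones, so the clone difference in that fit rests on those libraries alone. It is therefore no check on the remaining libraries. Of 65 called named genes, 38 kept the call under every alternative run, 27 lost it under 1 or more and 0 changed direction. Of 19 uncalled named genes, 12 gained a call under 1 or more: Slc3a2, Slc2a3, Slc6a6, Slc15a4, Slc14a1, Slc2a9, Slc25a3 and Slc44a2 under the replicate block among others, and Slc27a4, Slc35e1, Slc4a7 and Slc25a25 under other settings.

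The genes whose sign changed were all uncalled in the test without alternatives, and the cause was not tested. Slc28a2 gave 0.05 by library size, 0.01 without ANT replicate 1, 0.02 without ANT replicate 3 or SAS replicate 3 and 0.16 without ANT replicates 1 and 3, and its single left-out libraries spanned -0.15 to 0.02. Without that pair Slc25a3 gave -0.02, Slc35e1 -0.19 and Slc2a9 0.11. Slc25a4 gave -0.03 without ANT replicate 5, -0.01 without SAS replicate 1 and -0.19 without ANT replicates 4 and 5. Without ANT replicate 1, ANT replicate 3 and SAS replicate 2 in turn Slc35e1 gave -0.05, -0.04 and -0.01. Under the replicate block Slc4a7 gave -0.11, Slc15a2 1.74 and Slc27a4 0.10; without ANT replicates 4 and 5 Slc4a7 gave -0.13 and Slc27a4 0.21. Slc15a2 gave 0.16 without ANT replicate 3 and 0.12 and 0.08 without SAS replicates 2 and 6, and spanned -2.32 to 0.16 over single left-out libraries. Genes near 0 in ANT rest on few counts there, which limits the size of their fold.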
